A study of Mus musculus with 16 samples.

Results

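The genes described here are 30 genes of cholesterol synthesis, its regulation and the transport of cholesterol, chosen by name as the rows of the count table whose Ensembl identifier carries one of these symbols, 30 of 53801 rows in all. Of them, 18 encode enzymes of synthesis, 5 regulate the SREBP transcription factors, 3 transfer or store sterol inside the cell, 3 export it, and Cyp46a1 converts it to 24-hydroxycholesterol. All 30 passed the filter on low counts in each comparison, so no member was left out.

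RNA was sequenced from cortex and striatum of mice at postnatal day 10 on a C57BL6/J-129sv background, to ask how loss of TRRAP, a cofactor of histone acetyltransferases, altered transcription in forebrain neurons. The 4 control mice per tissue were Trrap Fl/+; Camk2-Cre tg, and the 4 mutants per tissue, called Trrap-FBΔ, were Trrap Fl/Fl; Camk2-Cre tg. Thus every mouse carried the Cre transgene and at least 1 floxed allele, and the controls kept 1 allele that could not be recombined. The 16 libraries came from 9 mice, of which 7 gave both tissues: mice 57, 59, 60 and 61 were the mutants of both tissues, mice 58, 63 and 64 were controls in both, mouse 55 gave control cortex only and mouse 65 control striatum only. The transgene drives Cre from a Camk2a promoter, which is active in glutamatergic pyramidal neurons, whereas the RNA came from whole tissue. In such bulk RNA, fewer cells of a type and less RNA per cell cannot be told apart.

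Cholesterol in the brain is made locally, because lipoproteins of the blood do not cross the blood-brain barrier. The mevalonate steps build farnesyl diphosphate, the squalene steps join and cyclise it to lanosterol, and the later steps turn lanosterol into cholesterol. SREBP-2, held in the endoplasmic reticulum by SCAP and INSIG proteins when sterol is abundant, is cut and enters the nucleus when sterol is scarce, and there it activates most genes of this pathway. Astrocytes export sterol on APOE particles through ABCA1 and ABCG1, genes activated by LXR, neurons convert excess cholesterol with CYP46A1, and oligodendrocytes need large amounts of it for myelin.

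Each library held between 28743866 and 48761429 counts, with a median of 41482110. Levels are given as CPM, counts scaled to the size of each library, and a gene was called higher or lower where the Benjamini-Hochberg adjusted p of edgeR's quasi-likelihood test was under 0.05. Trrap itself was counted over the whole gene, so its level does not check the deletion of the floxed part: it lay at 136 to 173 CPM in control and 121 to 146 in mutant cortex (log2 fold change -0.18 ± 0.075 SE, edgeR adjusted p = 0.083), and at 140 to 151 and 135 to 148 CPM in the striatum (-0.044 ± 0.048, adjusted p = 0.52). The sexes were not balanced, with 2 females in control cortex, 1 in control striatum and 3 among the mutants of either tissue.

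The libraries labelled striatum were set against markers of both tissues. Of 8 pyramidal neuron genes, all 8 were lower in control striatum than in control cortex, with a median log2 fold change of -1.84. Of 7 genes of striatal projection neurons, however, only Tac1 was called higher (log2 fold change 1.08 ± 0.22 SE, edgeR adjusted p = 0.0027), whereas Drd1, Drd2, Adora2a, Ppp1r1b, Rgs9 and Penk were not called. Ppp1r1b, which encodes DARPP-32, ranged from 19.4 to 300 CPM in control striatum and from 51.8 to 185 in control cortex. Among the control striata, the summed level of the 7 genes was lowest in mouse 58 at 191 CPM and highest in mouse 64 at 914 CPM, and control cortex ranged from 175 to 523 CPM. The tissue name is therefore used below as the label gives it, and counts for the striatum are also given without mice 63 and 64, and without mice 58 and 64.

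The promoters of the synthesis genes are shown first, since these genes moved together in what follows. The table of RefSeq promoters on GRCm38.p6 held 24 of the 30 members, and the 250 bases before each start site were searched on both strands for TCACNCCA, a form of the sterol regulatory element bound by SREBPs, for CCAAT, bound by NF-Y, and for GGGCGG, the GC box bound by SP1. TCACNCCA and CCAAT can share letters. The windows of 3 strongly lowered synthesis genes are printed 5′ to 3′ on the strand of the gene, followed by that of the efflux gene Abca1. Capitals mark each match on either strand.
Hmgcs1 (chr13:119690101-119690350, + strand): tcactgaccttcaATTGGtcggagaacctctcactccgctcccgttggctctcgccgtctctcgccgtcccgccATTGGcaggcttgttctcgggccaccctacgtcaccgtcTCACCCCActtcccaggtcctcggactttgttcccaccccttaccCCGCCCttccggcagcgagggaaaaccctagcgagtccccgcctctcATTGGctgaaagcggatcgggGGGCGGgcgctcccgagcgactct
Mvd (chr8:122443423-122443672, - strand): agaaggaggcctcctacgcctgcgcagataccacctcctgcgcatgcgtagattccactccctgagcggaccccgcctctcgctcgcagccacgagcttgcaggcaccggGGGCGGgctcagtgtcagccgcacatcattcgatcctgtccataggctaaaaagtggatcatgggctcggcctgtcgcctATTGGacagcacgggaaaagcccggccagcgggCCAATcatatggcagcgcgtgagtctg
Nsdhl (chrX:72918271-72918520, + strand): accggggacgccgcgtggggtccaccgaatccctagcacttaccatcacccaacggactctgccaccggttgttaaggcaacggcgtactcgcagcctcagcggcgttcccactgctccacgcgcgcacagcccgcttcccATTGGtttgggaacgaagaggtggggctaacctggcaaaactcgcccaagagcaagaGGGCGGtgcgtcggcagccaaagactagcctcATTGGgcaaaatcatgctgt
Abca1 (chr4:53159896-53160145, - strand): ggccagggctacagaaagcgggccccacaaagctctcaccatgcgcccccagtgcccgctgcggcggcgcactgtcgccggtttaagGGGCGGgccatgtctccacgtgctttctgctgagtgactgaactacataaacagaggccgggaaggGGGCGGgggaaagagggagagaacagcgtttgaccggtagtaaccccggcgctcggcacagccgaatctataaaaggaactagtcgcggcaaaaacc

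The window of Hmgcs1 held 1 TCACNCCA, 3 CCAAT and 2 GGGCGG matches, and that of Abca1 held 2 GGGCGG matches and neither of the other motifs. Of the 15 synthesis members with a window, 14 (93.3%) had CCAAT, 14 (93.3%) had GGGCGG and 13 (86.7%) had both, against 37.5%, 35.4% and 12.5% of the 27025 genes in the table. TCACNCCA was found in 2 of the 15 (13.3%), Hmgcs1 and Msmo1, against 4.2% of all genes. Of the 9 other members with a window, 6 had CCAAT, 7 had GGGCGG, 4 had both and 2 had TCACNCCA, Srebf2 and the efflux gene Apoe. The printed windows of Mvd and Nsdhl held no TCACNCCA, so this motif did not separate synthesis from efflux genes. Genes with several windows were counted once, and genes with more windows have more chances of a match: the 9 other members had 16 windows and the 15 synthesis members 18. The 27025 genes were not restricted to genes that passed the filter on low counts, as all members did, so they are not a matched set. A match describes the letters of these windows and is no evidence that a factor binds there.

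Nearly the whole synthesis pathway fell in Trrap-FBΔ mice. In the cortex 17 of the 18 synthesis genes were called lower and none higher, where 17.6% of all 18268 genes tested were called lower and 15.7% higher. In the striatum the same 17 genes were called lower and again none higher, where 15.8% of 18872 genes were called lower and 14.4% higher. The median log2 fold change of the 18 genes was -0.45 in cortical and -0.52 in striatal tissue, while that of all genes tested was 0.001 and -0.0055. Idi1, the isomerase of isopentenyl diphosphate, was the gene not called, with 44 to 84 reads per library and log2 fold changes of -0.29 ± 0.16 SE (edgeR adjusted p = 0.19) and -0.46 ± 0.18 (adjusted p = 0.078). In the striatum it was called lower in 1 fit of all 16 libraries, with the mouse as a replicate block (limma adjusted p = 0.049) or with none (edgeR adjusted p = 0.047), and without Trrap-FBΔ mouse 59 (edgeR adjusted p = 0.045).

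The levels of the 4 mutant libraries lay below those of all 4 controls for 16 of the 18 synthesis genes in the cortex and for 16 in the striatum, where 16.7% and 16.0% of all genes showed that order. Over all 30 members, the cortex had 19 called lower and 6 called higher, where 17.6% and 15.7% of all genes were called. The striatum had 20 and 6, where the shares were 15.8% and 14.4%. As shares of the 30 members, the counts called higher lie near those of all genes, so they do not set the members apart. Those called higher came to 2 in the cortex without control mice 58 and 63, and to 3 in the striatum without Trrap-FBΔ mouse 57 or without mouse 59. The members called higher, and those not called, are described with their roles below.

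**Figure D1:**
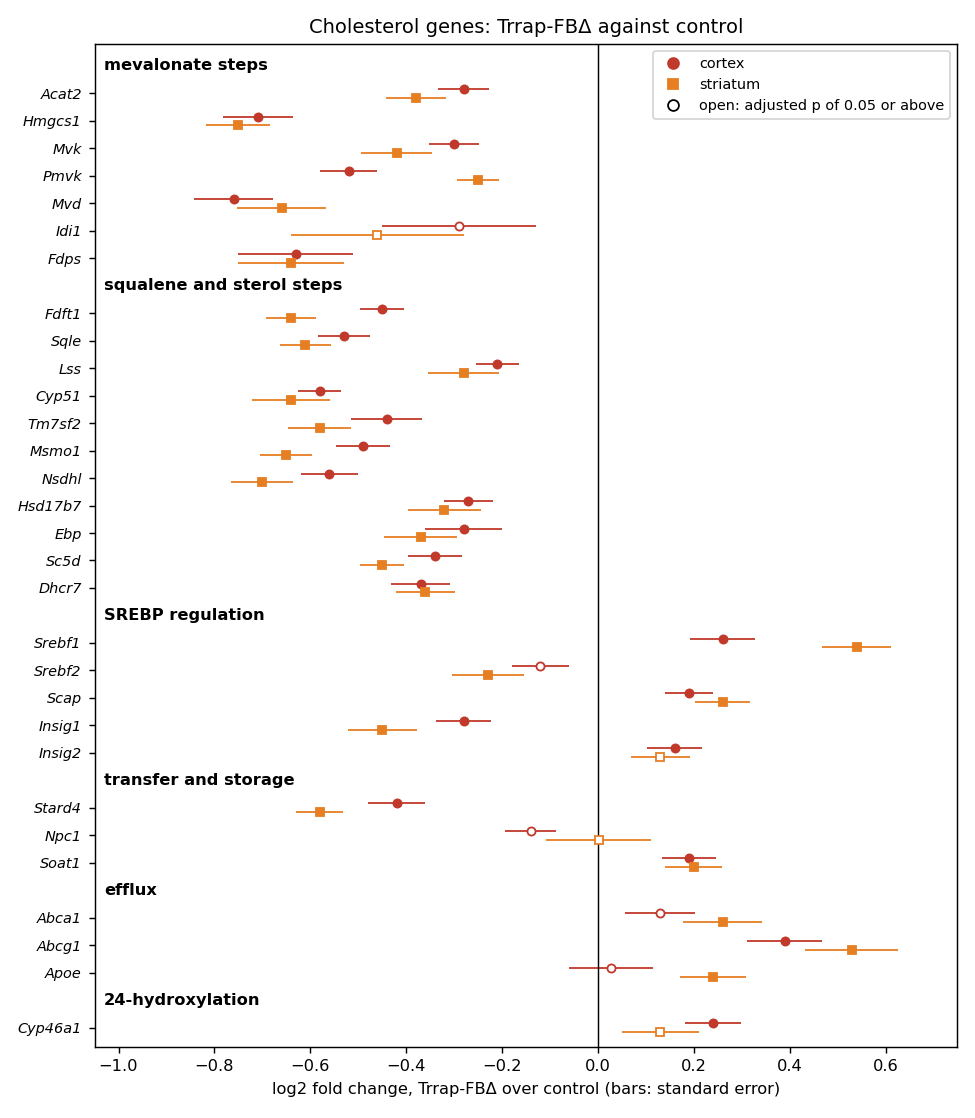
Log2 fold change of Trrap-FBΔ over control with its standard error (x axis) for each of the 30 members (y axis, grouped by role), from edgeR in 8 libraries per tissue. Circles are cortex, squares are striatum and open symbols did not pass the test; all points of the 18 synthesis genes lie left of 0, between -0.76 and -0.21, while Abca1, Abcg1, Apoe, Scap and Srebf1 lie right of it.

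Among the mevalonate steps, Hmgcs1 encodes the synthase that makes HMG-CoA, the compound from which mevalonate is formed. Its level in control cortex was 1057, 909, 1055 and 969 CPM in mice 55, 58, 63 and 64, and in Trrap-FBΔ cortex it was 667, 567, 593 and 620 CPM in mice 57, 59, 60 and 61. The striatal values were 873, 810, 790 and 787 CPM in control mice 58, 63, 64 and 65, and 470, 487, 452 and 535 CPM in the mutants. No mutant library reached any control of its tissue. The log2 fold change was -0.71 ± 0.073 SE in the cortex (edgeR adjusted p = 6.6e-05), where the level fell by 38.7%, and -0.75 ± 0.067 in the striatum (adjusted p = 0.00012), where it fell by 40.4%.

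Mvd, the decarboxylase that yields isopentenyl diphosphate, stood at 39.5, 37.4, 35.3 and 39.3 CPM in control cortex of mice 55, 58, 63 and 64 and at 25.1, 19.7, 20.5 and 24.3 CPM in Trrap-FBΔ cortex of mice 57, 59, 60 and 61. In the striatum the controls 58, 63, 64 and 65 had 37.3, 31.4, 30.6 and 28.6 CPM, and the mutants 20.3, 19.8, 18 and 22.7 CPM. The groups did not overlap in either tissue, and control striatum mouse 58 lay above the other 3 controls. The log2 fold changes were -0.76 ± 0.082 SE and -0.66 ± 0.093 (edgeR adjusted p = 8.7e-05 and 0.00081).

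Fdps makes farnesyl diphosphate, from which sterols and other isoprenoids branch. Its counts are uncertain, since 63.8% of the stretches of 51 bases in its annotated transcripts also occur, on the same strand, in transcripts of 8 other genes, and reads that fitted several places were not counted. It had 8.74, 6.74, 6.41 and 6.54 CPM in control cortex and 4.37, 4.16, 4.34 and 5.32 CPM in Trrap-FBΔ cortex, in the same order of mice. Striatal values were 6.46, 6.33, 5.97 and 6.27 CPM in controls and 3.26, 4.14, 3.88 and 4.82 CPM in mutants. The uniquely placed reads thus fell in both tissues without overlap (log2 fold change -0.63 ± 0.12 SE and -0.64 ± 0.11, edgeR adjusted p = 0.0023 and 0.0029), and the high control was mouse 55 in the cortex.

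Of the other 4 mevalonate genes, Acat2, Mvk and Pmvk fell, by less than these 3. Acat2, a thiolase that makes acetoacetyl-CoA, had log2 fold changes of -0.28 and -0.38, but 40.5% of its 51-base stretches occur in 1 other gene. Mvk, mevalonate kinase, had -0.30 and -0.42. Pmvk, phosphomevalonate kinase, had -0.52 ± 0.06 SE in the cortex and -0.25 ± 0.044 in the striatum (edgeR adjusted p = 0.00013 and 0.0027), the order of sizes opposite to most of the pathway. For Idi1, 19.9% of the stretches occur in 4 other genes.

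Of the squalene and sterol steps, all 11 genes were called lower in both tissues. Nsdhl, an X-linked dehydrogenase that helps remove methyl groups from lanosterol, had 56, 50.2, 50.3 and 53.3 CPM in control cortex and 34.4, 33.3, 36.3 and 38.3 CPM in Trrap-FBΔ cortex. Striatal levels were 52.4, 51.1, 50.6 and 46.7 CPM in controls and 28.9, 30.2, 29.6 and 34.4 CPM in mutants. The lowest control exceeded the highest mutant in either tissue, with log2 fold changes of -0.56 ± 0.06 SE and -0.70 ± 0.065 (edgeR adjusted p = 8.3e-05 and 0.00014).

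Cyp51, the lanosterol demethylase, had 157, 160, 160 and 157 CPM in control cortex and 113, 103, 108 and 102 CPM in mutant cortex. The striatal controls 58, 63, 64 and 65 had 207, 166, 166 and 184 CPM, and the mutants 107, 120, 109 and 126 CPM. The groups were apart in both tissues, although the striatal controls were spread over a wider range than the cortical ones. The log2 fold changes were -0.58 ± 0.045 SE and -0.64 ± 0.081 (edgeR adjusted p = 1.4e-05 and 0.00048).

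Msmo1, the oxidase that acts on the same methyl groups as Nsdhl, had 125, 114, 124 and 121 CPM in control cortex and 93.6, 81.4, 88.1 and 80.4 CPM in mutant cortex. In the striatum it had 125, 128, 112 and 119 CPM in controls and 72.7, 81.1, 75.9 and 78.1 CPM in mutants. Again no mutant library reached a control, with log2 fold changes of -0.49 ± 0.057 SE and -0.65 ± 0.054 (edgeR adjusted p = 0.00013 and 8.5e-05).

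The other 8 genes of these steps spanned a range of sizes. Sqle, squalene epoxidase, had log2 fold changes of -0.53 and -0.61, and Fdft1, squalene synthase, had -0.45 and -0.64, with 10.6% of its stretches shared with 1 other gene. The sterol reductase gene Tm7sf2 had -0.44 and -0.58, with 19.4% shared with 1 other gene. Sc5d, Dhcr7, Ebp and Hsd17b7, which act late in the pathway, lay between -0.27 and -0.45 in both tissues. The smallest changes among the genes called were those of Lss, lanosterol synthase, in the cortex (-0.21 ± 0.045 SE, edgeR adjusted p = 0.0046), and of Pmvk and Lss in the striatum. The groups overlapped for Ebp in the cortex and for Lss in the striatum. Ebp lost its cortical call without control mouse 63 or without Trrap-FBΔ mouse 59, 60 or 61 (edgeR adjusted p = 0.053 to 0.069). It also lost that call without control mice 58 and 63 together (edgeR adjusted p = 0.18). Lss lost its striatal call without Trrap-FBΔ mouse 60 (edgeR adjusted p = 0.054), with sex as a covariate (0.081) and without control mice 58 and 64 (0.095).

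**Figure D2:**
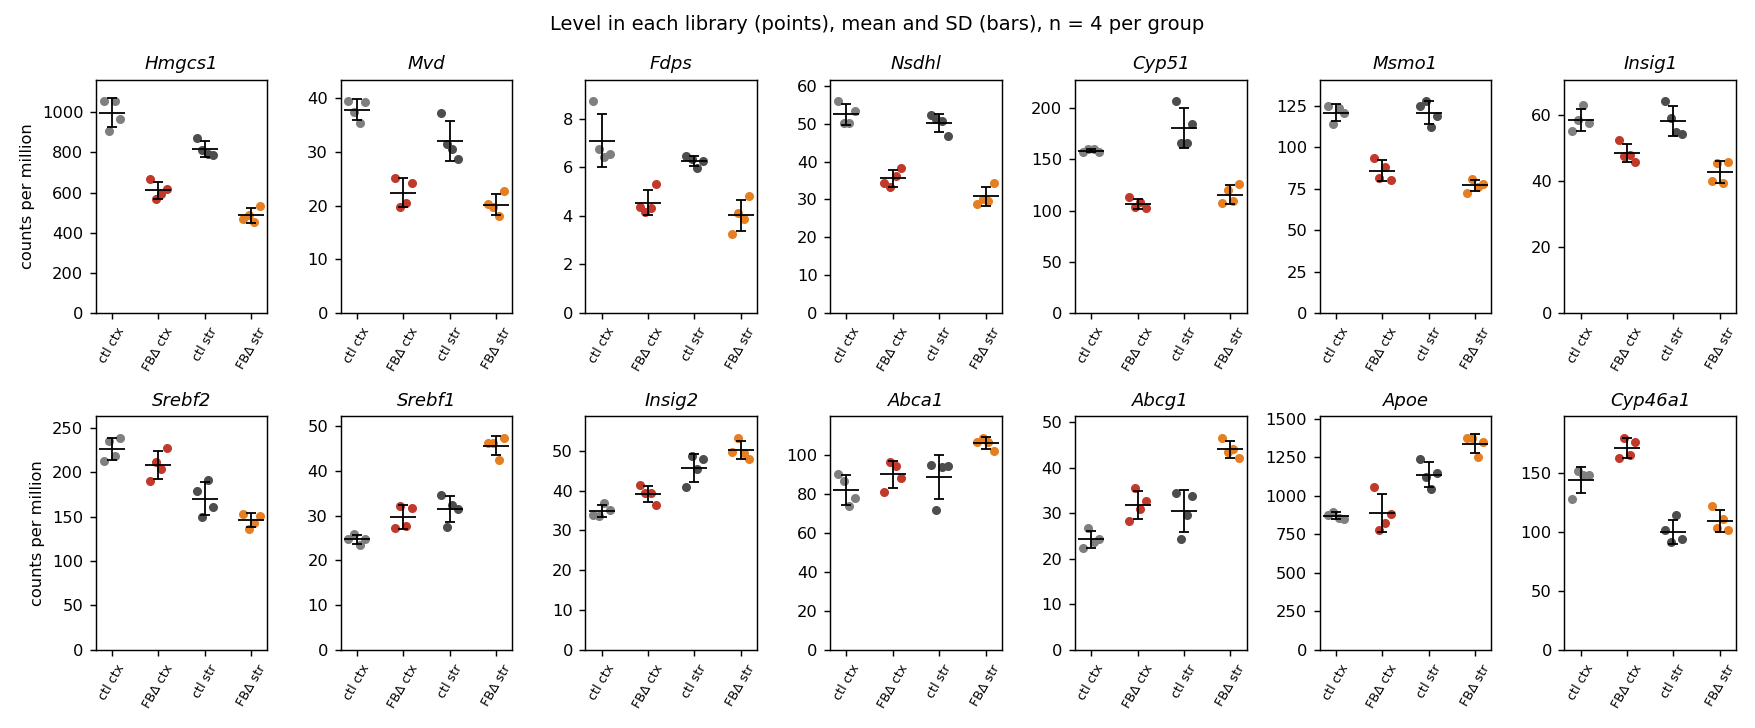
Level in CPM (y axis, from 0) of 14 members in each library (points), with the group mean and SD (bars, n = 4), for control (ctl) and Trrap-FBΔ (FBΔ) cortex (ctx) and striatum (str). The 7 genes of the top row were lower in every mutant library than in every control of the tissue, whereas Srebf1 and Abcg1 were higher in every mutant library.

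The genes that regulate SREBPs did not move as 1 group. Srebf1 encodes SREBP-1, whose main targets are genes of fatty acid synthesis. It had 24.9, 25.8, 23.4 and 24.7 CPM in control cortex and 27.3, 32.1, 27.6 and 31.8 CPM in Trrap-FBΔ cortex, and 34.7, 27.5, 32.4 and 31.5 CPM in control striatum and 46.4, 46.2, 42.6 and 47.5 CPM in mutant striatum. All mutants lay above all controls in both tissues, and Srebf1 rose by a log2 fold change of 0.26 ± 0.068 SE in the cortex and 0.54 ± 0.072 in the striatum (edgeR adjusted p = 0.012 and 0.00065). In the cortex the call was lost without control mice 58 and 63 (adjusted p = 0.063).

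Srebf2, which encodes SREBP-2, had 213, 235, 218 and 239 CPM in control cortex and 190, 211, 204 and 227 CPM in mutant cortex, and the groups overlapped. The striatum had 179, 150, 191 and 161 CPM in controls and 153, 136, 143 and 151 CPM in mutants, and these overlapped too. The cortical log2 fold change was -0.12 ± 0.059 SE (edgeR adjusted p = 0.14) and the striatal one -0.23 ± 0.075 (adjusted p = 0.045). The striatal call was lost in 9 of 18 alternatives, among them the fit with sex as a covariate (adjusted p = 0.19) and those without control mouse 58 or 64 or without any of the 4 mutants (edgeR adjusted p = 0.062 to 0.12).

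Insig1, which retains SCAP in the endoplasmic reticulum and is itself a target of SREBPs, followed the synthesis genes. It had 55.2, 58.5, 63.3 and 57.8 CPM in control cortex against 52.5, 47.7, 48 and 45.9 CPM in the mutants, and 64.4, 59.3, 55 and 54.4 CPM in control striatum against 40, 45.4, 39.6 and 46 CPM. The groups did not overlap in either tissue, and the log2 fold changes were -0.28 ± 0.058 SE and -0.45 ± 0.072 (edgeR adjusted p = 0.0039 and 0.0017).

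Its paralogue Insig2 had 33.9, 33.6, 36.9 and 35.1 CPM in control cortex and 41.3, 39.4, 39.3 and 36.4 CPM in mutant cortex. In the striatum it had 41, 48.7, 45.3 and 47.9 CPM in controls and 49.6, 53.3, 49.4 and 48 CPM in mutants. The groups overlapped in both tissues. The cortical log2 fold change of 0.16 ± 0.057 SE passed the test (edgeR adjusted p = 0.045) but lost its call in 9 of 17 alternatives, among them those without control mouse 55, 58 or 64 or Trrap-FBΔ mouse 57, 59 or 60 (adjusted p = 0.073 to 0.11), and the striatal one was 0.13 ± 0.062 (adjusted p = 0.14). Scap, the escort of SREBPs, rose in both tissues without overlap, by log2 fold changes of 0.19 ± 0.051 and 0.26 ± 0.057 (edgeR adjusted p = 0.014 and 0.0068), and the cortical call was lost without control mice 58 and 63 (adjusted p = 0.084).

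Of the genes that transfer or store sterol inside the cell, Stard4, a cytosolic sterol carrier that SREBP-2 activates, fell like the synthesis genes, from 60.8 to 72.1 CPM in control cortex to 46.8 to 51.3 CPM in mutant cortex, and from 56.7 to 63.3 to 38.9 to 41.4 CPM in the striatum. Its log2 fold changes were -0.42 ± 0.06 SE and -0.58 ± 0.049 (edgeR adjusted p = 0.00041 and 9.5e-05). Npc1, which moves sterol out of lysosomes, was not called in either tissue: the cortical log2 fold change was -0.14 ± 0.053, with groups that did not overlap (adjusted p = 0.058, or 0.043 without control mouse 63), and the striatal one 0.0016 ± 0.11 (adjusted p = 0.99). Soat1, which esterifies cholesterol for storage, rose by 0.19 ± 0.056 and 0.20 ± 0.059 (adjusted p = 0.021 and 0.027), without overlap, but 3 of 17 alternatives lost the cortical call and 9 of 18 the striatal one. These include the fits without cortical control 58 or Trrap-FBΔ mouse 60 (edgeR adjusted p = 0.053 for both), and those without striatal control 58, 64 or 65 or Trrap-FBΔ mouse 57, 59 or 60 (0.056 to 0.07).

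The efflux members Abca1, Abcg1 and Apoe moved the other way from synthesis, or were not called. Outside the members, the exporter gene Abcg4 was called lower in the cortex (log2 fold change -0.35, edgeR adjusted p = 0.0023). Abcg1, an exporter of sterol to lipoprotein particles, had 22.4, 26.8, 23.6 and 24.3 CPM in control cortex and 28.2, 35.5, 31 and 32.7 CPM in mutant cortex. The striatum had 34.4, 24.4, 29.6 and 33.7 CPM in controls and 46.6, 43.4, 44.1 and 42.2 CPM in mutants. All mutants lay above all controls, the order shown by 16.0% of cortical and 15.6% of striatal genes, and Abcg1 rose by log2 fold changes of 0.39 ± 0.078 SE and 0.53 ± 0.097 (edgeR adjusted p = 0.0031 and 0.003).

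Abca1, which loads sterol onto apolipoproteins, had 90.3, 86.5, 73.7 and 78.2 CPM in control cortex and 81.2, 96.6, 94.5 and 88.1 CPM in mutant cortex. In the striatum controls 58, 63, 64 and 65 had 94.7, 72, 93.8 and 94.4 CPM and the mutants 107, 109, 107 and 102 CPM. The cortical groups overlapped (log2 fold change 0.13 ± 0.073 SE, edgeR adjusted p = 0.18), whereas in the striatum all mutants were above all controls, of which mouse 63 was far below the others (0.26 ± 0.082, adjusted p = 0.036). The striatal call was lost on leaving out each of the mutants in turn, at adjusted p between 0.053 and 0.088.

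Apoe, the carrier protein of sterol that astrocytes secrete, had 879, 897, 858 and 848 CPM in control cortex and 1061, 780, 826 and 881 CPM in mutant cortex, where mutant mouse 57 was high and the others lay at or below the controls. In the striatum it had 1240, 1121, 1044 and 1148 CPM in controls and 1379, 1379, 1255 and 1350 CPM in mutants, with no overlap. The cortical log2 fold change was 0.027 ± 0.087 SE (edgeR adjusted p = 0.84) and the striatal one 0.24 ± 0.069 (adjusted p = 0.026), and the striatal call was lost in 8 of 18 alternatives, among them those without control mouse 64 or 65 or Trrap-FBΔ mouse 57, 59 or 61 (adjusted p = 0.052 to 0.077).

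Cyp46a1, the neuronal 24-hydroxylase, had 128, 152, 148 and 148 CPM in control cortex and 163, 180, 165 and 176 CPM in mutant cortex. In the striatum it had 102, 91.5, 114 and 93.7 CPM in controls and 122, 103, 111 and 102 CPM in mutants. It rose in the cortex, where all mutants were above all controls (log2 fold change 0.24 ± 0.058 SE, edgeR adjusted p = 0.0077), and was not called in the striatum, where the groups overlapped (0.13 ± 0.08, adjusted p = 0.24).

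Synthesis was then set against efflux within each library, as the mean log2 CPM of the 18 synthesis genes less that of Abca1, Abcg1 and Apoe. In the cortex the difference was -1.22 ± 0.099 (SD, n = 4) in controls and -1.84 ± 0.084 in Trrap-FBΔ, and in the striatum it was -1.56 ± 0.13 and -2.42 ± 0.11. Relative to the efflux genes the synthesis genes were thus 0.648 times the control level in mutant cortex and 0.55 times in mutant striatum. The ranges were apart in both tissues, from -1.36 to -1.13 in control and -1.96 to -1.77 in mutant cortex, and from -1.69 to -1.37 and -2.54 to -2.28 in the striatum. Most of the shift lay in the synthesis level, which was 0.734 times the control in the cortex and 0.701 times in the striatum, while the efflux level was 1.13 and 1.27 times. The efflux level weights its genes equally, and in the cortex only Abcg1 among them was called. Their summed CPM overlapped in the cortex, at 951 to 1010 in control and 912 to 1171 in mutant libraries. In the striatum the sums were 1168 to 1369 and 1406 to 1532 CPM, without overlap. These levels are a description with no test.

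**Figure D3:**
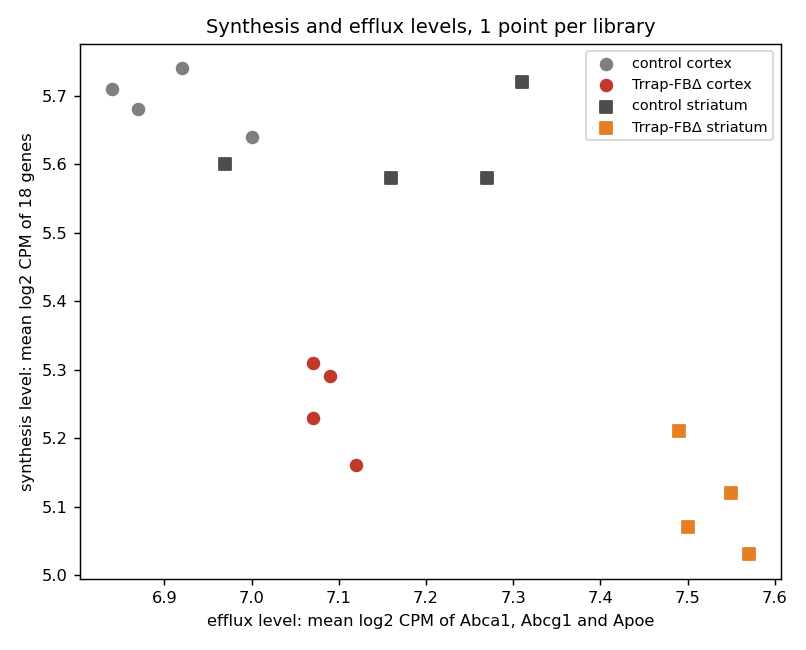
Mean log2 CPM of the 18 synthesis genes (y axis) against that of Abca1, Abcg1 and Apoe (x axis), 1 point per library, circles for cortex and squares for striatum. The mutant libraries lie between 5.03 and 5.31 on the synthesis axis and the controls between 5.58 and 5.74, and the mutants lie to the right of the controls of their tissue on the efflux axis.

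Whether the genotype effect differed between the tissues was tested with the interaction of tissue and genotype over all 16 libraries. None of the 30 members was called by edgeR, where 0.437% of 19438 genes were called (85 genes, or 18 to 151 on leaving out 1 library). At an unadjusted p under 0.05 there were 3 members, Pmvk (difference of log2 fold changes, striatum less cortex, 0.27 ± 0.071 SE, edgeR adjusted p = 0.11), Fdft1 (-0.19 ± 0.066, adjusted p = 0.22) and Srebf1 (0.27 ± 0.10, adjusted p = 0.27). The share of all genes under that unadjusted p was not counted, so these 3 are not read as an excess. DESeq2 called Pmvk alone among the members (adjusted p = 0.02). The difference between the calls of Apoe, Abca1, Cyp46a1, Srebf2 and Insig2 in the cortex and in the striatum was therefore not shown to be a difference of effect.

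The levels themselves differed between the tissues of the controls for 14 of the 30 members, of which 8 were called lower in control striatum than in control cortex and 6 higher, where 20.1% and 20.3% of 18284 genes were called. As shares of the 30 members these counts lie near those of all genes, so they do not set the members apart. Cyp46a1 was lower (log2 fold change -0.52 ± 0.08 SE, edgeR adjusted p = 0.00053), as were Srebf2 (-0.41 ± 0.079, adjusted p = 0.0022), Fdft1, Scap, Hmgcs1, Sqle, Mvd and Tm7sf2. Apoe and Insig2 were higher (both 0.39, adjusted p = 0.0013 and 0.00065), as were Srebf1, Abcg1, Soat1 and Sc5d. With the mouse as a replicate block, 5 members were called lower and 3 higher, the calls of Hmgcs1, Mvd, Sqle, Sc5d, Soat1 and Abcg1 being lost. Leaving out 1 library also ended calls: that of Mvd without cortex of mouse 55, 58 or 64 or striatum of mouse 63, 64 or 65 (edgeR adjusted p = 0.061 to 0.11), that of Sc5d without any cortical library or striatum of mouse 58 or 65 (0.059 to 0.11), that of Abcg1 without cortex of mouse 55, 63 or 64 or striatum of mouse 58, 64 or 65 (0.051 to 0.096) and that of Soat1 without cortex of mouse 58 or 63 (0.054 to 0.062). Of the members not called, others were called without 1 library: Lss, Cyp51, Stard4 and Abca1 without striatum of mouse 63 (0.022 to 0.043), Hsd17b7 and Dhcr7 without striatum of mouse 58 (0.014 and 0.023), and Ebp without cortex of mouse 63 (0.023).

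Compared per kilobase of annotated exon, the most abundant member in control cortex was Apoe with 407 ± 10.2 CPM per kb (SD, n = 4), before Hmgcs1 with 217 ± 15.6 and Cyp46a1 with 43.9 ± 3.33. The lowest were Fdps with 1.69 ± 0.26 and Idi1 with 0.559 ± 0.0756, both counted over unique sequence only. In control striatum Apoe and Hmgcs1 again came first, with 532 ± 37.8 and 177 ± 8.68 CPM per kb, followed by Cyp51 with 40.9 ± 4.42. Of the 29 pairs of neighbours in this order, 18 in control cortex and 20 in control striatum had overlapping intervals of mean ± 1 SD, so the middle of the order is not resolved.

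The neighbouring pathways, taken from lists of genes, moved with synthesis only in part. For the counts of these and the following lists, the shares of all genes called lower and higher were 17.6% and 15.7% in the cortex. In the striatum they were 15.8% and 14.4%. Of 12 genes of fatty acid synthesis, 10 were called lower in cortical and 5 in striatal mutants, and none higher, with median log2 fold changes of -0.30 and -0.14. Scd1, a desaturase of fatty acids, fell by a log2 fold change of -0.64 ± 0.079 SE in the cortex and -0.60 ± 0.049 in the striatum (edgeR adjusted p = 0.00018 and 8.4e-05), Me1, malic enzyme, by -0.54 and -0.36, the elongase gene Elovl6 by -0.42 and -0.40, and Scd2 by -0.36 and -0.28. Acly and Fasn, which provide acetyl-CoA and build palmitate, were called lower in the cortex (-0.32 and -0.25) but had -0.15 and -0.0075 in the striatum (adjusted p = 0.23 and 0.97), and neither difference between the tissues passed the test (adjusted p = 0.59 and 0.61).

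The isoprenoid branch, which leaves the pathway after farnesyl diphosphate, was mostly not called: of 10 genes, Pdss1 fell (-0.28 and -0.21) and Coq2 rose (0.30 and 0.20) in both tissues, both of them acting in the synthesis of ubiquinone. Of 6 genes of SREBP processing and sterol-dependent degradation, Mbtps1, the protease that first cuts SREBPs, rose in both tissues (0.27 and 0.30) and Erlin1 fell in both (-0.23 and -0.22). A second gene, Erlin2, was called higher in the striatum. With so few genes, the counts of these lists do not set them apart from all genes.

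Of 8 genes of LXR and its targets outside the members, Rxra, the partner receptor of LXR, rose in both tissues (log2 fold change 0.44 ± 0.069 SE and 0.36 ± 0.089, edgeR adjusted p = 0.00071 and 0.013). The exporter gene Abcg4 was called lower in the cortex (-0.35) and Lpcat3 higher in the striatum (0.17), and the LXR genes Nr1h2 and Nr1h3 and the LXR target Mylip were called in neither tissue. These counts do not set the list apart from all genes. Of 10 sterol transfer proteins, the cortex had 4 called lower and 1 called higher, and the striatum 4 and 2. The counts called higher lie near the shares of all genes, 15.7% and 14.4%. Tmem97, which binds NPC1, fell by -0.71 ± 0.085 and -0.59 ± 0.11, Gramd1a by -0.43 and -0.37 and Npc2 by -0.29 and -0.24, while Stard3 rose by 0.21 and 0.19.

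Of 6 lipoprotein receptors and carriers, Vldlr, Lrp8 and Scarb1 fell in both tissues and none rose. The first 2 encode receptors for APOE and reelin, and had log2 fold changes of -0.32 and -0.40 for Vldlr and -0.29 and -0.35 for Lrp8. Of 4 oxysterol enzymes none was called in either tissue, and their summed level was 17.4 to 18.2 CPM in control cortex and 16.6 to 18.7 CPM in mutant cortex.

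**Figure D4:**
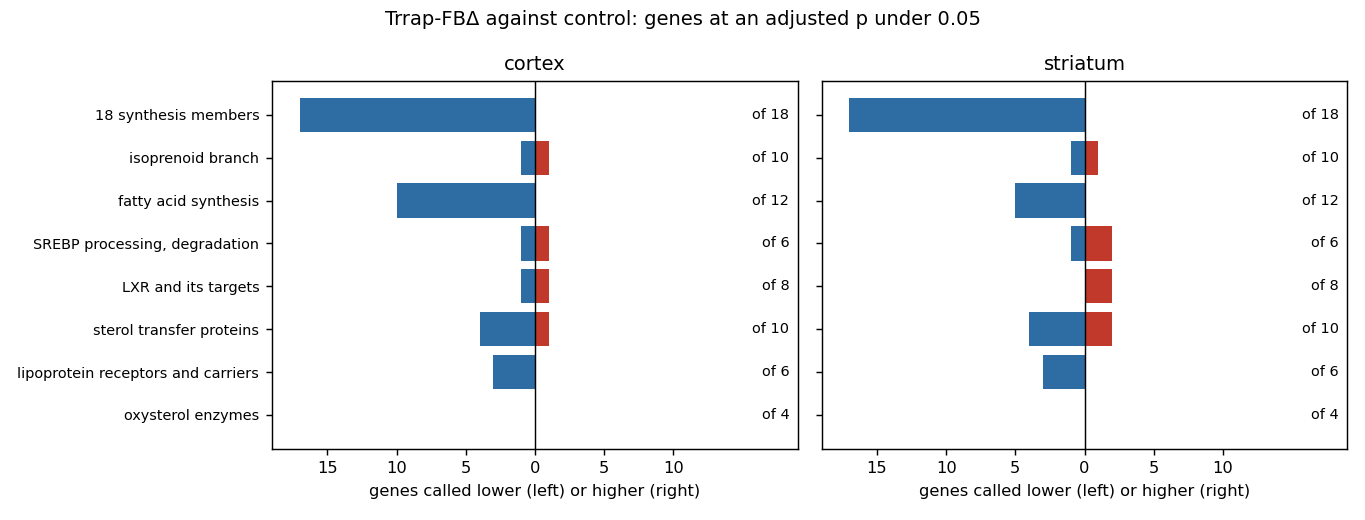
Number of genes called lower (bars to the left) or higher (bars to the right) in Trrap-FBΔ at an edgeR adjusted p under 0.05, for the 18 synthesis genes and 7 lists of related genes, with the number tested at the right. Of the synthesis genes 17 were called lower in each tissue, and of the fatty acid genes 10 in the cortex and 5 in the striatum.

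Some marker genes of other cell types were called between the genotypes too. Of all genes tested, 17.6% were called lower and 15.7% higher in the cortex, and 15.8% and 14.4% in the striatum. Of 12 genes of mature oligodendrocytes, 9 were called lower in Trrap-FBΔ cortex and 0 in Trrap-FBΔ striatum, with median log2 fold changes of -0.53 and -0.12, and none of the 12 was called for the difference between the tissues. Their summed level was 1890 to 3337 CPM in control cortex and 1392 to 2145 in mutant cortex, and it overlapped widely in the striatum, with 3356 to 9968 CPM in controls and 4193 to 7326 in mutants. The striatal synthesis genes summed to 1833 to 2039 CPM in controls and 1186 to 1338 in mutants, without overlap. In control striatum of mice 58, 63, 64 and 65 the oligodendrocyte genes summed to 9968, 3356, 4688 and 7436 CPM, and the synthesis genes to 2039, 1868, 1833 and 1850 CPM.

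Of 6 genes of the oligodendrocyte lineage and its precursors, such as Pdgfra and Olig2, 6 were called lower in mutant cortex and 3 in mutant striatum, with medians of -0.39 and -0.32. Their summed level was 572 to 662 CPM in control and 458 to 522 in mutant cortex, and 761 to 1065 and 668 to 815 CPM in the striatum. Of 9 microglial genes, mutant cortex had 9 and mutant striatum 6 called lower, their sums being 400 to 450 against 292 to 364 CPM and 326 to 398 against 279 to 293 CPM. Of 11 astrocyte genes, 3 were called higher in each tissue, Gfap, Gja1 and Gjb6. Called lower were 2 in mutant cortex, Aqp4 and Aldh1l1, and 1 in mutant striatum, Slc1a2. Beside the shares of all genes called, these astrocyte counts do not set the list apart. The astrocyte sums were 5575 to 5874 against 5506 to 6161 CPM in the cortex and 4669 to 5208 against 4427 to 4759 CPM in the striatum. The part of these cell types in the results for the cholesterol genes was not tested.

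Neuronal markers were summed in the same way. Of 8 pyramidal neuron genes, the cell type in which Cre is driven, 1 was called lower in mutant cortex and 5 in mutant striatum, and their sums were 3484 to 4246 and 3794 to 3908 CPM in control and mutant cortex, and 1053 to 1767 and 740 to 1119 CPM in the striatum. Of the 7 genes of striatal projection neurons none was called in either tissue, with 191 to 914 CPM in control and 288 to 463 CPM in mutant striatum. Of 6 endothelial genes, 4 were lower in mutant cortex and 1 in mutant striatum, of 5 interneuron genes 1 was higher in mutant cortex and 1 lower in mutant striatum, and those of choroid plexus and blood were not called. Beside the shares of all genes called, a count of 1 does not set any of these lists apart. Without striatal controls 63 and 64, and without 58 and 64, the synthesis genes called lower in the striatum were 17 and 16.

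**Figure D5:**
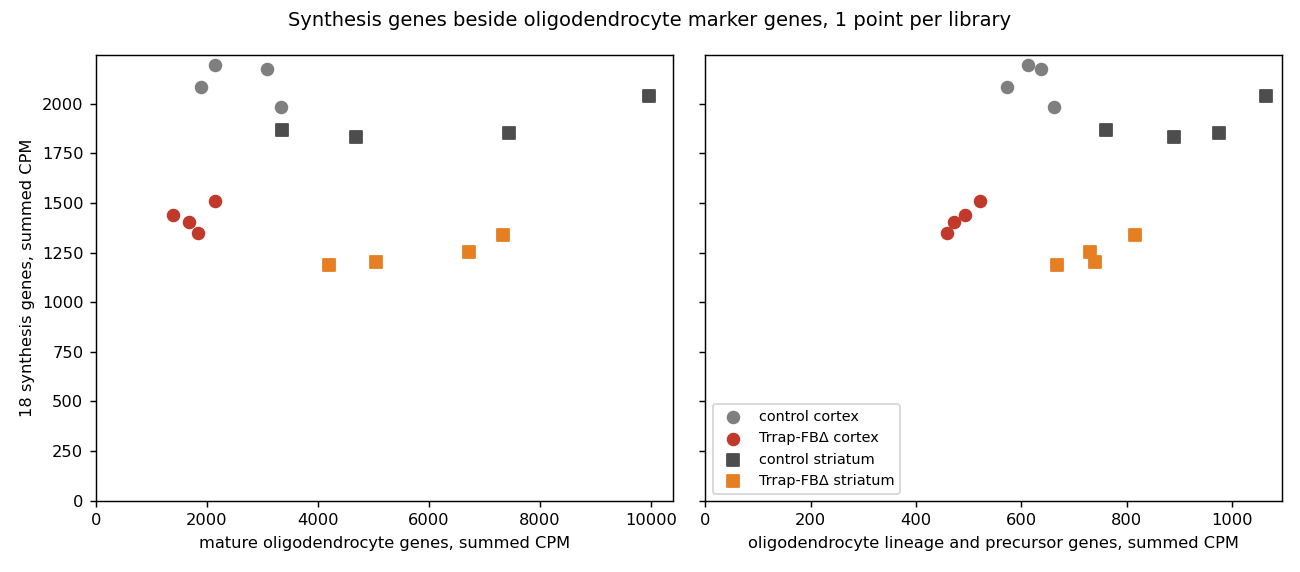
Summed CPM of the 18 synthesis genes (y axis, from 0) against that of 12 mature oligodendrocyte genes (left) and 6 lineage and precursor genes (right), 1 point per library, circles for cortex and squares for striatum. The mutant libraries hold 1186 to 1509 CPM of synthesis genes and the controls 1833 to 2196, while the mature oligodendrocyte sums of the striatal groups overlap.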

How the data were processed

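RNA from cortex and striatum was made into stranded mRNA libraries and sequenced as single-end reads of 51 cycles. The authors extracted reads with bcl2fastq 1.8.4, aligned them to GRCm38 with STAR 2.5.4b and assigned uniquely mapped reads to Ensembl genes with featureCounts 1.5.0 by strand, and they tested them with DESeq2. The deposited values are raw counts per gene, with no normalization, and ranged from 28743866 to 48761429 in total per library. The members with the fewest reads were Idi1, with 44 to 84 per library, and Fdps, with 149 to 285. Symbols were found for 53620 of 53801 rows.

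The counts were tested in R 4.3.3 with edgeR 4.0.16 (filterByExpr, TMM, quasi-likelihood test, Benjamini-Hochberg adjustment over all genes tested, threshold 0.05), separately in the 8 libraries of each tissue, in all 16 for the interaction, and in the 8 control libraries for the tissues. The scripts were tested on simulated data. CPM were computed with TMM factors over all 16 libraries. Alternatives were other scaling factors, filters, DESeq2 1.42.0, sex as a covariate, all 16 libraries in 1 fit, each library left out, and the mouse as a replicate block (limma 3.58.1). Libraries of 1 mouse deviated together from their group means (correlation 0.121 to 0.365 over genes in 7 of 7 mice, against -0.265 to 0.13 for different mice of 1 genotype), and they share the animal by their labels, so the block pairs them. No 2 libraries of a group agreed within sampling noise. Whole-gene counts of Trrap were compared by the same edgeR test.

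The members and lists were chosen with earlier results of these data known. All 30 members are named, the 6 with the largest mean change among those called the same way in both tissues, the efflux genes, Cyp46a1, Srebf1, Srebf2, Insig1 and Insig2 with the value of each library. Of each other list at most 4 genes called in both tissues are singled out by size. Acly, Fasn, Erlin2, Abcg4, Lpcat3, Nr1h2, Nr1h3, Mylip, Aqp4, Aldh1l1 and Slc1a2 were added after their values were seen. Exon lengths and coordinates came from GENCODE vM21 and promoters from RefSeq (GRCm38.p6). A gene of the striatal projection neuron list is not reported here, and the values of that list leave it out.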

Additional observations from a re-analysis of the deposited data

Results flagged for a closer look

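In 5 of 128 groups of 4 libraries, 1 library lay far from the other 3 by Dixon's test, of which chance flags about 1 in 20. Fdps was at 8.74 CPM in control cortex mouse 55, the others being at 6.41 to 6.74. Dhcr7 was at 56.2 CPM in Trrap-FBΔ cortex mouse 61, the others at 47 to 48.3, and Stard4 at 46.8 CPM in the same library, the others at 50.8 to 51.3. Abca1 was at 72 CPM in control striatum mouse 63, the others at 93.8 to 94.7. The mean log2 CPM of the synthesis genes was 5.72 in control striatum mouse 58, the others lying at 5.58 to 5.6.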

How the results depend on the processing

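Of 2160 values of single members under the alternatives, 2058 stayed on their side of the threshold, 81 lost the call and 21 gained one. No called value changed sign, whereas some values not called in either fit did, among them those of Apoe in the cortex and Npc1 in the striatum on leaving out 1 library. Leaving out 1 library gave 16 to 17 synthesis members called lower in the cortex and 16 to 18 in the striatum, and 3 to 6 members called higher in the striatum, with 3 without Trrap-FBΔ mouse 57 or 59. Without control cortex mice 58 and 63, an alternative chosen after seeing the data, 2 members were called higher in the cortex, and without striatal controls 58 and 64, chosen likewise, 3692 genes in all were called in the striatum in place of 5704. The genes called for the difference between the tissues were 85, against 195 with no filter on low counts, 430 by DESeq2 (1 member, the synthesis gene Pmvk, higher), 219 with the mouse as a replicate block, and 18 to 151 without 1 library, lowest without Trrap-FBΔ striatum mouse 61 and highest without control striatum mouse 65. Between the tissues of the controls, 1 synthesis member was called higher in the striatum, against 4 with upper-quartile factors, 0 with no filter, 2 with at least 10 counts in every library and 0 to 3 without 1 library. With the replicate block, 5 members were called lower there and 3 higher, with 2 and 0 of the synthesis members. Idi1 was called lower in the striatum by the fit with the block (limma adjusted p = 0.049, log2 fold change -0.49), and also by edgeR over all 16 libraries with no block (adjusted p = 0.047). No other call of a member between the genotypes differed in the fit with the block. The causes of these shifts were not tested. Idi1 had the fewest reads of the members, 44 to 84 per library.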
